A study of Mus musculus with 40 samples.

Results

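Cells remove cholesterol through ATP-driven transporters. Abcg5 and Abcg8 encode the parts of a heterodimer in the bile-facing membrane of hepatocytes that exports cholesterol and plant sterols into bile, and neither protein reaches that membrane without the other. Abca1 encodes the pump that loads cholesterol and phospholipid onto lipid-poor apolipoprotein A-I, the opening step of high-density lipoprotein (HDL) formation. Scarb1 encodes scavenger receptor BI, through which hepatocytes take up the cholesteryl esters of HDL. Abca1, Abcg5 and Abcg8 are target genes of the liver X receptors (LXR), which sense oxysterols.

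These 4 sterol export and lipoprotein uptake genes were chosen by name, as every probe of the array whose platform symbol is Abcg5, Abcg8, Abca1 or Scarb1. The array held 1 probe for each, 4 of 25697 probes in all. RNA came from the livers of 40 male C57BL/6J mice, an inbred strain with no induced mutation or transgene named in the labels, measured with 1 Illumina mouse BeadChip per sample. From 5 months of age the mice ate either the WIS diet or the NIA diet. WIS, a purified diet, held 28.5% sucrose by weight and took 24.4% of its energy from fat. NIA held 3.9% sucrose by weight and took 17.7% of its energy from fat. Each diet was given as 30% caloric restriction (CR), as a meal-fed portion (MF) or ad libitum (AL). The groups were CR-WIS (n = 10), MF-WIS (n = 4), AL-WIS (n = 6), CR-NIA (n = 9), MF-NIA (n = 6) and AL-NIA (n = 5). CR and MF mice got a single daily portion at 3 pm, and the 2 regimens shared that timing while AL mice did not. Food for CR mice lay on the floor and food for MF and AL mice in the hopper, so the amount eaten, the meal and the place of feeding cannot be told apart in CR against AL. The meal-fed portions were set so that MF-NIA, MF-WIS and AL-WIS mice took in equal calories, and AL-NIA mice ate the most. The mice arrived at 6 weeks, and the food allotments of CR and MF mice were fixed at 14 months, a step that AL mice lacked. Age at collection, the hour of collection and the time since the last meal are not given in the labels.

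Levels are the deposited scores, which hold each array at mean 0 and SD 1, multiplied by 1.51 so that differences read in log2 units of signal. A level of 0 is the mean of all probes on an array, and a level says nothing of the amount of one gene against another. Detection, a p-value under 0.01 beside each signal, could be read on 34 arrays, which leaves out the AL-NIA group. Of these 34 arrays, 8725 to 11199 probes were detected on each. In the deposited signals, Abcg5 and Abcg8 were detected on 34 of 34 arrays, Scarb1 on 7 and Abca1 on 2. A probe was tested when detected on at least 4 arrays, so 3 of the 4 genes were among the 11334 probes tested and Abca1 was not. Of the 13 hepatocyte markers on the array, 12 were measured, among them albumin (Alb) and transthyretin (Ttr). Whole liver was used, so fewer cells of a type and less RNA per cell cannot be told apart.

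Several libraries stood apart. On the principal component that carried 28.8% of the variance, AL-WIS replicate 1 scored 93.0 and every other AL-WIS library 19.4 or less. Its mean level of 13 macrophage and Kupffer cell markers, relative to the mean of the 40 arrays, was 3.51, against -0.15 to 1.14 in the other 5 AL-WIS libraries. For the library labelled CR-NIA replicate 1 no signal column of its group matched the scores. The signals had 8 columns for 9 CR-NIA samples and 6 for 5 AL-NIA samples. On the component above, replicate 1 scored 12.7, while no other CR-NIA liver exceeded -11.2 and AL-NIA livers spanned -5.9 to 20.5. Its macrophage marker mean was 0.45, while no other CR-NIA liver exceeded -0.15 and AL-NIA livers spanned -0.37 to 0.78. Its Abcg8 level of 2.90 lay below the AL-NIA minimum of 3.06 and the next lowest CR-NIA level of 3.43. Its Abca1 level of -0.88 also lay below both groups. Its Abcg5 level of 3.80 lay below the other CR-NIA livers (4.11 to 4.89) and within the AL-NIA range (3.71 to 4.98). Its Scarb1 level of -0.35 lay above the other CR-NIA livers (-0.83 to -0.56) and within the AL-NIA range (-0.69 to -0.30). Whether its label is right was not tested, and it was kept as labelled. MF-WIS replicate 4 had the highest Abcg5 and Abcg8 levels of the 40 arrays. Results that rest on these libraries are given with and without them.

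Abcg5 and Abcg8 lie head to head on mouse chromosome 17, and their shared upstream stretch is shown because their levels moved together, as described below. The RefSeq start sites in GRCm38.p6 lie 110 bases apart. RefSeq windows of 250 bases before to 50 bases after a start were found for 3 of the 4 genes, with a second window further upstream for Abcg8. The windows of Abcg5 and of the nearer Abcg8 start overlap by 209 bases. The Abcg8 window, chr17:84682871-84683170 on the plus strand, reads 5′ to 3′ with matches on either strand of the letters AGATAA, a motif of the zinc-finger family named after GATA, in capitals:
Abcg8: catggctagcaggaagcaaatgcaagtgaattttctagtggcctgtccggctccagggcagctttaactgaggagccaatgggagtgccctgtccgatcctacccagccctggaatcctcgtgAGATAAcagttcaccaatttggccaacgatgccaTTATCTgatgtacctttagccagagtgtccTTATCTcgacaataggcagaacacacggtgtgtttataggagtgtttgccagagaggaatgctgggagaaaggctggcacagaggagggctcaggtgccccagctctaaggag
The 3 matches begin 127, 93 and 63 bases before the Abcg8 start. Those at 93 and 63 bases lie between the 2 start sites, and the match at 127 bases lies just inside the transcribed part of Abcg5. At least 1 match of AGATAA was present in 11.2% of the 32851 RefSeq windows and at least 3 in 0.107%, which is 35 windows, both of these among them. No match of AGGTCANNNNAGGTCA, an ideal LXR response element, was found in the windows of Abcg5, Abcg8 or Abca1, and 0.0152% of windows held one. The motifs were searched after the sequence had been read, and a match describes letters, not a bound site.

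Mean Abcg5 was highest in the restricted livers of both diets, and mean Abcg5 and Abcg8 were lowest in AL-WIS livers. Abcg5 levels in CR-WIS livers had a minimum of 3.65, a median of 4.60 and a maximum of 5.04. In MF-WIS livers Abcg5 was 3.88, 3.83, 4.42 and 5.12. In AL-WIS livers Abcg5 had a minimum of 1.40, a median of 3.80 and a maximum of 4.32. The lowest AL-WIS value is that of replicate 1, and the next lowest was 3.43. In CR-NIA livers Abcg5 ran from 3.80 to 4.89 with a median of 4.53, and in MF-NIA livers from 3.85 to 4.51 with a median of 4.33. In AL-NIA livers it was 4.98, 3.80, 4.09, 4.09 and 3.71, so that a single AL-NIA liver lay above all restricted NIA livers.

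The order of mean Abcg5 levels was CR-WIS at 4.51 ± 0.41 (SD, n = 10), CR-NIA at 4.49 ± 0.35 (n = 9), MF-WIS at 4.31 ± 0.60 (n = 4), MF-NIA at 4.28 ± 0.24 (n = 6), AL-NIA at 4.14 ± 0.50 (n = 5) and AL-WIS at 3.45 ± 1.04 (n = 6). Each neighbouring pair in this order differed by less than the larger of its SDs. Without replicate 1, AL-WIS averaged 3.86 ± 0.32 (n = 5) and was still the lowest mean.

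Abcg8 gave nearly the same picture. Its levels had a minimum of 3.35, a median of 3.97 and a maximum of 4.41 in CR-WIS livers. In MF-WIS livers they were 3.35, 3.49, 4.08 and 4.94. In AL-WIS livers the minimum was 0.38, the median 3.13 and the maximum 3.99. The AL-WIS minimum again belonged to replicate 1, and the other 5 livers lay at 2.93 or above. CR-NIA livers ran from 2.90 to 4.48 with a median of 3.91, with replicate 1 at the bottom and the next at 3.43. MF-NIA livers ran from 3.40 to 4.02 with a median of 3.71, and AL-NIA livers were at 4.06, 3.65, 3.62, 3.62 and 3.06.

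Mean Abcg8 levels ran from MF-WIS at 3.96 ± 0.72 (SD, n = 4) through CR-WIS at 3.93 ± 0.30 (n = 10), CR-NIA at 3.90 ± 0.49 (n = 9), MF-NIA at 3.72 ± 0.23 (n = 6) and AL-NIA at 3.61 ± 0.35 (n = 5) to AL-WIS at 2.80 ± 1.24 (n = 6). No neighbouring pair differed by more than the larger of its SDs. Without replicate 1, AL-WIS averaged 3.28 ± 0.41 (n = 5), again the lowest mean.

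**Figure D1:**
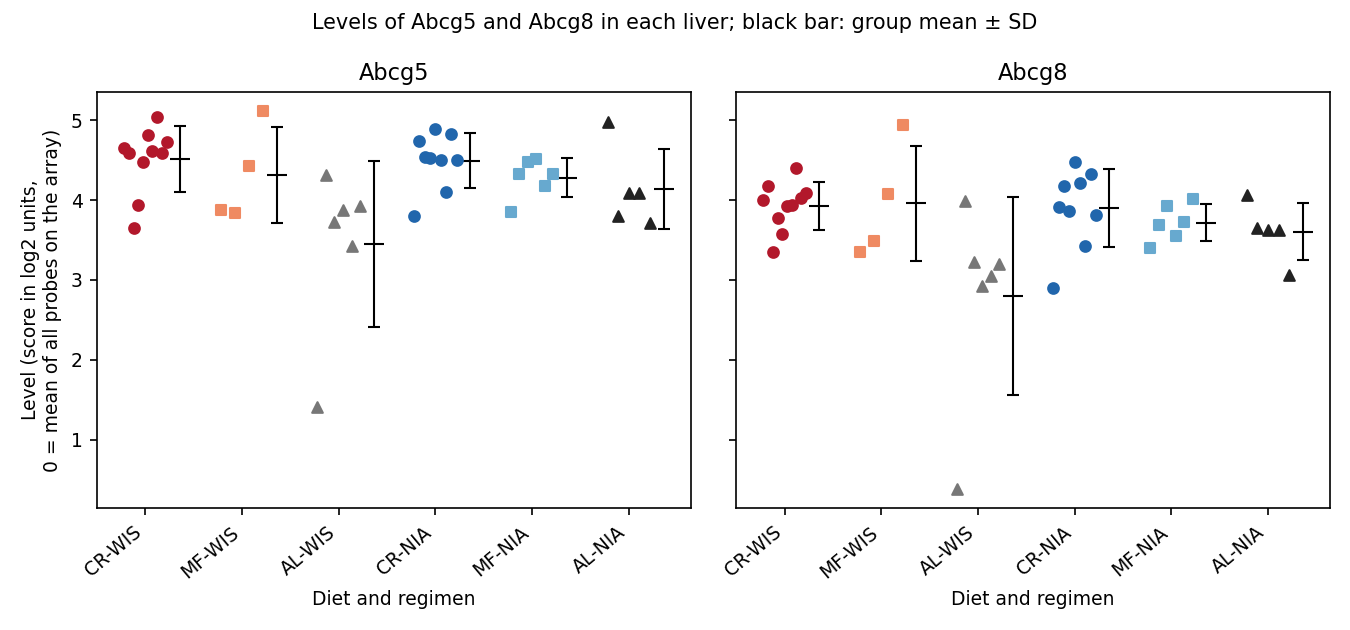
Level of Abcg5 (left) and Abcg8 (right) in each of 40 livers by diet and regimen, as scores in log2 units; points are livers and black bars are group means ± SD. AL-WIS replicate 1 lies far below the rest at 1.40 for Abcg5 and 0.38 for Abcg8. The other 5 AL-WIS livers run from 3.43 to 4.32 for Abcg5 and from 2.93 to 3.99 for Abcg8. CR-WIS livers run from 3.65 to 5.04 and from 3.35 to 4.41.

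The first question was whether restriction on the sucrose-rich diet altered these genes. In the deposited linear signals, Abcg5 had a median of 6776 and a range of 3215 to 10750 on the CR-WIS arrays, against a median of 3778 and a range of 795 to 5020 on the AL-WIS arrays. Abcg8 had a median of 4213 and a range of 2617 to 6853 on the CR-WIS arrays, against 2570 and 388 to 3780 on the AL-WIS arrays. These signals are not normalized between arrays, and their order of groups differs from that of the levels. The MF-NIA arrays had the highest median signals, 7440.5 for Abcg5 and 5377 for Abcg8. Of the 10 CR-WIS livers, 8 lay above every AL-WIS liver for Abcg5 and 5 for Abcg8, and 9 and 10 lay above the AL-WIS median. The groups thus overlapped in part.

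Abcg5 rose by 1.06 on the log2 scale in CR-WIS against AL-WIS livers, a 2.09-fold difference (SE 0.27, 95% interval 0.51 to 1.62, limma adjusted p = 0.0115). Abcg8 rose by 1.13, or 2.19-fold (SE 0.30, 95% interval 0.52 to 1.75, limma adjusted p = 0.0149). These were 2 of the 3 genes tested, where 13% of all tested probes were called, and Scarb1 differed by -0.03 (adjusted p = 0.851), a difference whose sign turned under other scalings. Without AL-WIS replicate 1 the differences were 0.66 for Abcg5 (adjusted p = 0.0588) and 0.65 for Abcg8 (adjusted p = 0.0721), both short of the threshold of 0.05, where 4.84% of all probes were called. CR-NIA replicate 1 and MF-WIS replicate 4 belong to neither group and bear on this comparison only through the shared spread and the adjustment. With them left out as well, the unchanged differences of 0.66 and 0.65 had limma adjusted p = 0.0237 and 0.0163, where 8.75% of all probes were called. A limma fit to the CR-WIS and AL-WIS arrays alone, AL-WIS replicate 1 among them, gave adjusted p = 0.0722 and 0.0801. The exact permutation test, two-sided and unadjusted, gave p = 0.00225 for Abcg5 and 0.00137 for Abcg8. It covered all 8008 splits of the 16 arrays, AL-WIS replicate 1 among them, and has no value here without that library.

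Markers of other liver cell types moved with this comparison, where 13% of all tested probes were called. Of 13 measured macrophage and Kupffer cell markers (17 on the array), 11 fell in CR-WIS against AL-WIS livers, with Adgre1 at -1.61 and Clec4f at -1.21 among them. The mean level of the 13 ranged from -0.74 to 0.70 in CR-WIS livers, against -0.15 to 3.51 in AL-WIS livers. Of 10 stellate cell markers 6 fell, with the mean level at -0.36 to -0.02 in CR-WIS livers and -0.0002 to 0.87 in AL-WIS livers. Of 5 neutrophil markers 3 fell, and of 12 hepatocyte markers 2 rose. The mean level of 15 sinusoidal endothelial markers ran from -0.09 to 0.13 in CR-WIS livers and from -0.07 to 0.51 in AL-WIS livers. Without AL-WIS replicate 1, 3 macrophage markers and 1 stellate marker fell, where 4.84% of all probes were called. The macrophage markers Cd5l, Fcgr1, Itgam and Msr1 were not measured, and of 5 cholangiocyte and 8 lymphocyte markers on the array 1 and 3 were. The part of these cells in the Abcg5 and Abcg8 differences was not tested.

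On the NIA diet the differences between restricted and ad libitum livers were smaller. Abcg5 differed by 0.36 (SE 0.29, 95% interval -0.24 to 0.95, limma adjusted p = 0.467) in CR-NIA against AL-NIA livers. Abcg8 differed by 0.30 (SE 0.33, 95% interval -0.37 to 0.96, limma adjusted p = 0.603). The count of calls was 0 of 3 genes by limma, against 11.6% of all tested probes. At an unadjusted p under 0.05 limma gave 1 of 3, Scarb1, and the exact permutation test gave 0 of 3. Without the 3 libraries that stood apart, Abcg5 differed by 0.44 (adjusted p = 0.0835) and Abcg8 by 0.42 (adjusted p = 0.0757). With all libraries, the upper bounds of these NIA intervals, 0.95 for Abcg5 and 0.96 for Abcg8, lay below the WIS differences of 1.06 and 1.13. They lay above the 0.66 and 0.65 found on the WIS diet without AL-WIS replicate 1. The WIS intervals with all libraries, 0.51 to 1.62 for Abcg5 and 0.52 to 1.75 for Abcg8, overlapped the NIA intervals.

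Whether the restriction difference depended on diet was tested directly. The WIS difference minus the NIA difference was 0.71 for Abcg5 (SE 0.40, limma adjusted p = 0.524) and 0.83 for Abcg8 (SE 0.45, limma adjusted p = 0.495) and neither passed the threshold. Of the 3 genes tested, limma called 0, also at an unadjusted p under 0.05, and it called 0.0265% of all tested probes. These were 0.30 and 0.35 without AL-WIS replicate 1.

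Averaged over both diets, restricted livers had more Abcg5 and Abcg8 signal than ad libitum livers. Abcg5 rose by 0.71, or 1.64-fold (SE 0.20, 95% interval 0.30 to 1.12, limma adjusted p = 0.00874), and Abcg8 by 0.72, or 1.64-fold (SE 0.22, 95% interval 0.26 to 1.17, limma adjusted p = 0.0168). Called probes made up 26.4% of those tested. Both calls held when any single library was left out, with adjusted p up to 0.0209 for Abcg5 and 0.0394 for Abcg8. With AL-WIS replicate 1 left out the differences were 0.51 (adjusted p = 0.0120) and 0.47 (adjusted p = 0.0237), where 25% of probes were called. Without the 3 libraries they were 0.55 (adjusted p = 0.00178) and 0.54 (adjusted p = 0.00115), where 32.9% were called. In the same comparison 12 of 13 macrophage and Kupffer cell markers fell with all libraries, and 12 of 13 without the 3.

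**Figure D2:**
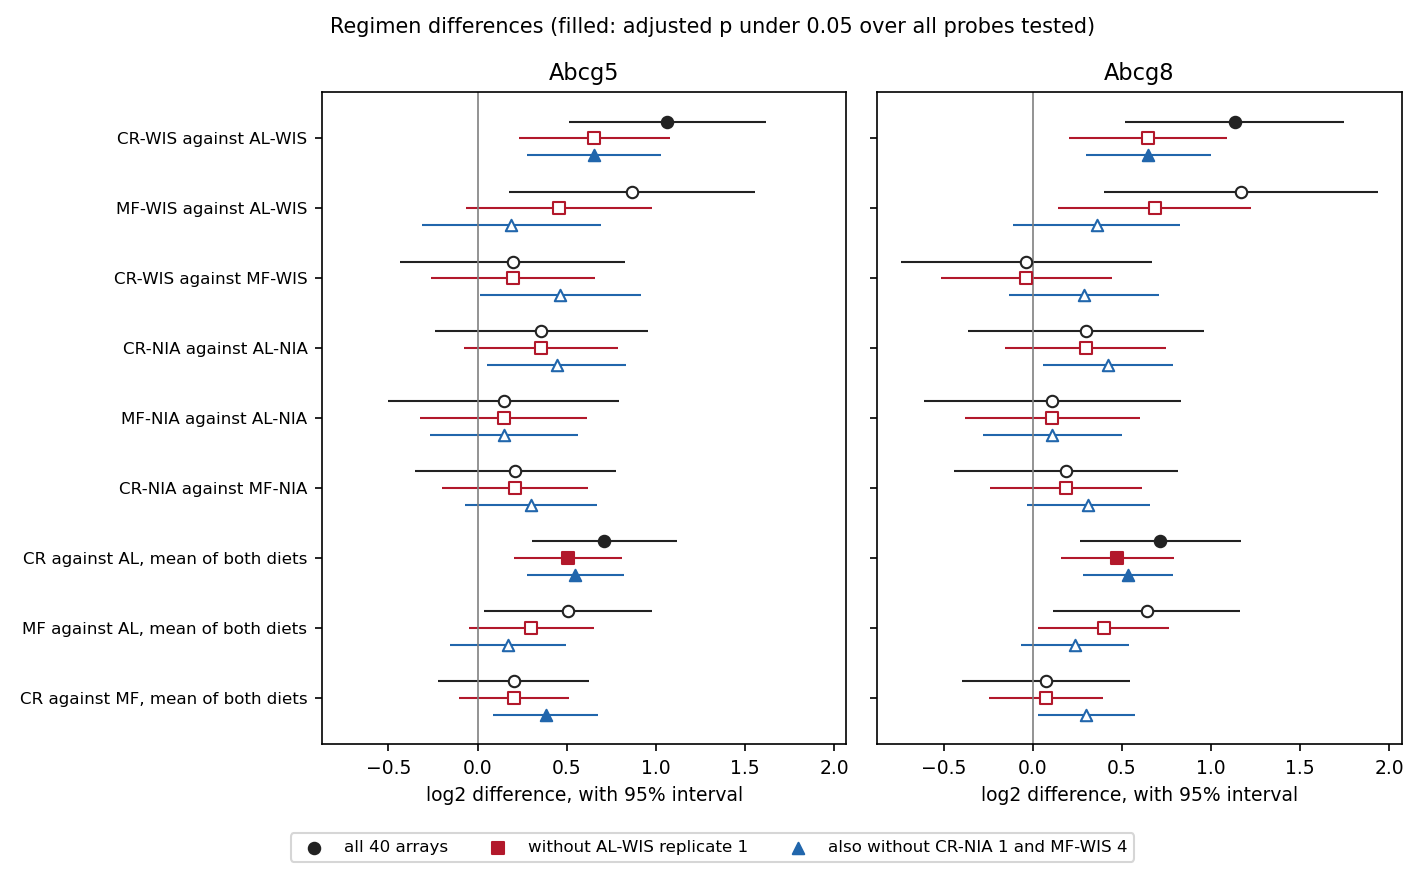
Differences of Abcg5 (left) and Abcg8 (right) between regimens in log2 units, with 95% intervals, from all 40 arrays, without AL-WIS replicate 1, and also without CR-NIA replicate 1 and MF-WIS replicate 4. Filled points passed an adjusted p of 0.05; CR against AL averaged over both diets passed in all 3 settings for both genes, at 0.71, 0.51 and 0.55 for Abcg5.

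Meal feeding, which shares its portion hour with restriction, gave values between or beside the others. In MF-WIS against AL-WIS livers Abcg5 differed by 0.87 (SE 0.34, limma adjusted p = 0.230) and Abcg8 by 1.17 (SE 0.38, limma adjusted p = 0.172). The limma count of calls was 0 of 3 genes, against 0.0441% of all probes. With an unadjusted p under 0.05 limma gave 2 of 3 and the exact permutation test 0 of 3. They were 0.46 and 0.68 without AL-WIS replicate 1, and without the 3 libraries 0.19 and 0.36. MF-WIS replicate 4, at 5.12 for Abcg5 and 4.94 for Abcg8, had a mean level of -1.11 over 15 sinusoidal endothelial markers, the lowest of the MF-WIS livers, and its part in the result was not tested. In MF-NIA against AL-NIA livers Abcg5 differed by 0.15 (limma adjusted p = 0.872) and Abcg8 by 0.11 (limma adjusted p = 0.921).

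Over both diets, MF against AL gave 0.51 for Abcg5 (SE 0.23, limma adjusted p = 0.193) and 0.64 for Abcg8 (SE 0.26, limma adjusted p = 0.139), where 4.27% of probes were called. CR against MF gave 0.20 for Abcg5 (SE 0.21, 95% interval -0.22 to 0.63, limma adjusted p = 0.507) and 0.08 for Abcg8 (SE 0.23, 95% interval -0.40 to 0.55, limma adjusted p = 0.843), where 25.9% of probes were called. Without the 3 libraries the CR against MF difference of Abcg5 was 0.38 and passed the threshold (adjusted p = 0.0379), and that of Abcg8 was 0.30 (adjusted p = 0.0795). Within the WIS diet 3.34% of probes were called in CR against MF, and in its difference between the diets 0.00882%, with Abcg5, Abcg8 and Scarb1 called in neither by limma, also at an unadjusted p under 0.05.

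No comparison of the diets passed the threshold for Abcg5 or Abcg8. In AL-WIS against AL-NIA livers Abcg5 differed by -0.69 (SE 0.32, limma adjusted p = 0.378) and Abcg8 by -0.81 (SE 0.36, limma adjusted p = 0.360). Leaving out AL-WIS replicate 1 brought these to -0.28 and -0.33, and 0.0618% of probes were called in this comparison. Averaged over the 3 regimens, WIS against NIA gave -0.21 for Abcg5 and -0.18 for Abcg8 (limma adjusted p = 0.552 and 0.667), where 2.94% of probes were called. Across the diet comparisons within each regimen and on average, adjusted p for Abcg5 and Abcg8 ran from 0.360 to 0.986.

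Abcg5 and Abcg8 rose and fell together from liver to liver. Over the 40 arrays Pearson's r was 0.94 and Spearman's rho 0.86, each with a two-sided permutation p = 1e-05, the smallest that 100000 resamples can give, and 6e-05 after Benjamini-Hochberg adjustment over the 6 pairs of the 4 genes. As deviations from the 6 group means, r was 0.92 and rho 0.79 (permutation p = 1e-05 each). It was 0.87 over arrays and 0.84 over deviations without AL-WIS replicate 1. Without the 2 arrays farthest from the median of Abcg5, AL-WIS replicates 1 and 5, it was 0.86. Within groups of at least 6 livers, r was 0.82 in CR-WIS (permutation p = 0.00436), 0.98 in AL-WIS (exact permutation p = 0.0139), 0.93 in CR-NIA (exact permutation p = 0.00104) and 0.55 in MF-NIA (exact permutation p = 0.269). After adjustment over these 4 groups the p-values were 0.00872, 0.0185, 0.00416 and 0.269. The AL-WIS r includes replicate 1, at 1.40 for Abcg5 and 0.38 for Abcg8. The other 5 AL-WIS livers lay at 3.43 or above for Abcg5 and 2.93 or above for Abcg8. By rank the relation passed in 1 of the 4 groups. Spearman's rho was 0.66 in CR-WIS (adjusted permutation p = 0.0836), 0.71 in AL-WIS (adjusted exact permutation p = 0.181), 0.85 in CR-NIA (adjusted exact permutation p = 0.0211) and 0.23 in MF-NIA (adjusted exact permutation p = 0.667). MF-WIS, AL-NIA and AL-WIS without replicate 1 hold too few livers for a value.

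**Figure D3:**
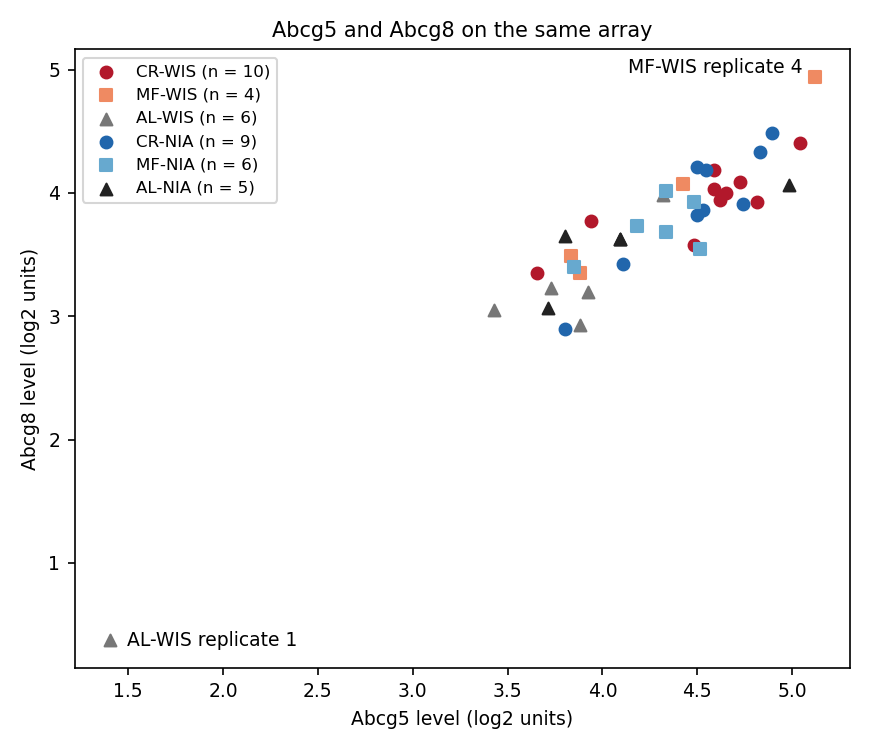
Abcg8 level against Abcg5 level on the same array for 40 livers, in log2 units, with colour and shape for diet and regimen. The points lie along a rising line, r = 0.94 over all arrays and 0.87 without AL-WIS replicate 1, the isolated point at the lower left.

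Among the 7957 other measured genes, Abcg8 had the highest correlation with Abcg5, and Abcg5 with Abcg8. This order held over 40 arrays, without AL-WIS replicate 1 and over deviations from the group means. After Abcg8, the genes most like Abcg5 over 40 arrays were Ces1g, a carboxylesterase of lipid metabolism, with r = 0.85, and Cyhr1, with r = 0.84. Without AL-WIS replicate 1 these values were 0.69 and 0.78, and the genes next to Abcg8 were then Adarb1, an RNA-editing enzyme, with r = 0.84, and Gch1, the entry enzyme of tetrahydrobiopterin synthesis, with r = 0.83. After Abcg5, the genes most like Abcg8 were Abcc2, which exports bilirubin and other conjugates into bile, with r = 0.89, and Bdh2, with r = 0.85. These were 0.73 and 0.58 without AL-WIS replicate 1, when the next genes after Abcg5 were Gch1 and Sap30l with r = 0.77 each. These correlations share libraries and are descriptions across 40 arrays.

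Abca1 and Scarb1 gave signals near background. The Abca1 probe was detected on 1 of 10 CR-WIS, 0 of 4 MF-WIS, 1 of 6 AL-WIS, 0 of 8 CR-NIA and 0 of 6 MF-NIA arrays. Its deposited signals ran from 124 to 326 over the 34 arrays, where the lowest signal of any detected probe was 161 to 327 depending on the array. Abca1 levels averaged -0.70 ± 0.12 in CR-WIS (SD, n = 10), -0.82 ± 0.13 in MF-WIS (n = 4), -0.66 ± 0.23 in AL-WIS (n = 6), -0.69 ± 0.12 in CR-NIA (n = 9), -0.75 ± 0.15 in MF-NIA (n = 6) and -0.71 ± 0.10 in AL-NIA (n = 5). The group ranges overlapped throughout, and no fold is given for a probe at background.

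Scarb1 was detected on 2 of 10 CR-WIS, 3 of 4 MF-WIS, 1 of 6 AL-WIS, 0 of 8 CR-NIA and 1 of 6 MF-NIA arrays. In levels it averaged -0.53 ± 0.11 in CR-WIS (SD, n = 10), -0.44 ± 0.17 in MF-WIS (n = 4), -0.51 ± 0.21 in AL-WIS (n = 6), -0.67 ± 0.16 in CR-NIA (n = 9), -0.44 ± 0.07 in MF-NIA (n = 6) and -0.48 ± 0.16 in AL-NIA (n = 5). The CR-NIA mean was the lowest, and 8 of 9 CR-NIA livers lay below all MF-NIA livers, the exception being replicate 1 at -0.35. With so few arrays detecting the probe, these levels give no firm order of the groups.

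The Scarb1 level differed by -0.23 in CR-NIA against MF-NIA livers (SE 0.08, limma adjusted p = 0.0455), where 19% of probes were called. It differed by -0.16 in CR against MF over both diets (SE 0.06, limma adjusted p = 0.04996). The median of all tested probes itself differed by -0.16 in CR-NIA against MF-NIA livers and by -0.12 in CR against MF. With each array centred on that median, the Scarb1 differences were -0.06 (adjusted p = 0.658) and -0.04 (adjusted p = 0.673). Because no CR-NIA array detected Scarb1, its level there is only a bound. On the MF-NIA arrays the deposited Scarb1 signals ran from 205 to 325, and 1 of 6 arrays detected the probe, so no fold is given.

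**Figure D4:**
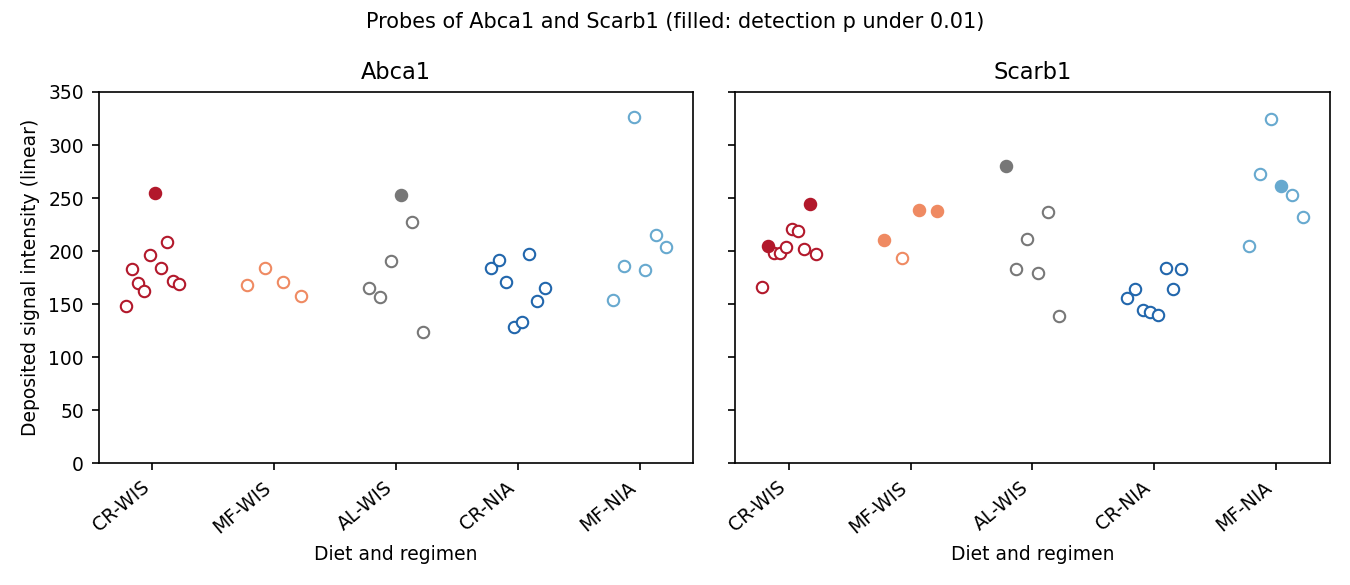
Deposited linear signal intensity of the Abca1 (left) and Scarb1 (right) probes on 34 arrays of 5 groups; filled points have a detection p under 0.01. Abca1 was detected on 2 arrays and Scarb1 on 7, none of them CR-NIA.

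Abca1 and Scarb1 levels were related inversely over the 40 arrays, with r = -0.48 and rho = -0.50 (permutation p = 0.00163 and 0.00114, adjusted over 6 pairs 0.00489 and 0.00342). Without AL-WIS replicate 4 and CR-WIS replicate 6, the 2 arrays farthest from the median of Abca1, r was -0.47. Both probes were undetected on most arrays, so this is a relation between background-level signals. The other 4 pairs had adjusted p of 0.0727 or above, and the r of -0.33 between Abcg5 and Scarb1 was -0.03 without AL-WIS replicate 1. The genes most like Scarb1 over 40 arrays were Plod3 (r = 0.71), Bcs1l (r = 0.70) and Dctn5 (r = 0.69).

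Other genes of sterol handling were counted in CR against AL over both diets, in 6 lists, beside the 26.4% of all tested probes that were called in this comparison. Of 10 LXR, retinoid X receptor and LXR target genes, 2 rose and 1 fell, a share near those 26.4%. Cyp7a1, the rate-limiting enzyme of bile acid synthesis, rose by 1.14 (limma adjusted p = 0.0203), and Rxra, the receptor that pairs with LXR, by 0.29 (adjusted p = 0.00587). Pltp, which transfers phospholipid between lipoproteins, fell by 0.81 (adjusted p = 0.0408). The list's median difference was -0.01, as was that of all genes tested. Of 10 genes of HDL formation and remodelling, Pltp and Bmp1, a protease that trims the apolipoprotein A-I precursor, fell. The list's median was 0.17.

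Of 12 lipoprotein receptors and regulators, 1 rose and 2 fell, again a share near the 26.4% of all probes. Tmem97, which binds the low-density lipoprotein receptor, rose by 0.64 (limma adjusted p = 8.85e-05). Lsr, the lipolysis-stimulated receptor, fell by 0.41 (limma adjusted p = 0.0233). Lrpap1, a chaperone of the low-density lipoprotein receptor family, fell by 0.31 (limma adjusted p = 0.00865). The list's median was -0.06. Of 9 genes of intracellular sterol transport and esterification, 4 rose, against 26.4% of all probes called, and the list's median was -0.0023. These were Nceh1, which hydrolyses cholesteryl esters, at 0.69, the sterol carriers Stard5 at 0.69 and Stard4 at 0.46, and Osbpl2 at 0.17.

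Of 11 bile transporters and their receptors, 3 rose, a share near the 26.4% of all probes. They were Nr1h4, the bile acid receptor FXR, at 0.60 (limma adjusted p = 0.00168), Abcc2 at 0.44 (adjusted p = 0.00943) and Foxo1, an insulin-regulated transcription factor, at 0.39 (adjusted p = 0.00160). The list's median was 0.17. Of 18 genes of cholesterol synthesis and its control, 3 fell, a smaller share than the 26.4% of all probes. They were Insig2, which retains the SREBP pathway in the endoplasmic reticulum, by 1.46, Sc5d by 0.87 and Nsdhl by 0.75, the last pair being synthesis enzymes. That list's median was -0.15, and without the 3 libraries 7 of the 18 fell, where 32.9% of all probes were called.

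**Figure D5:**
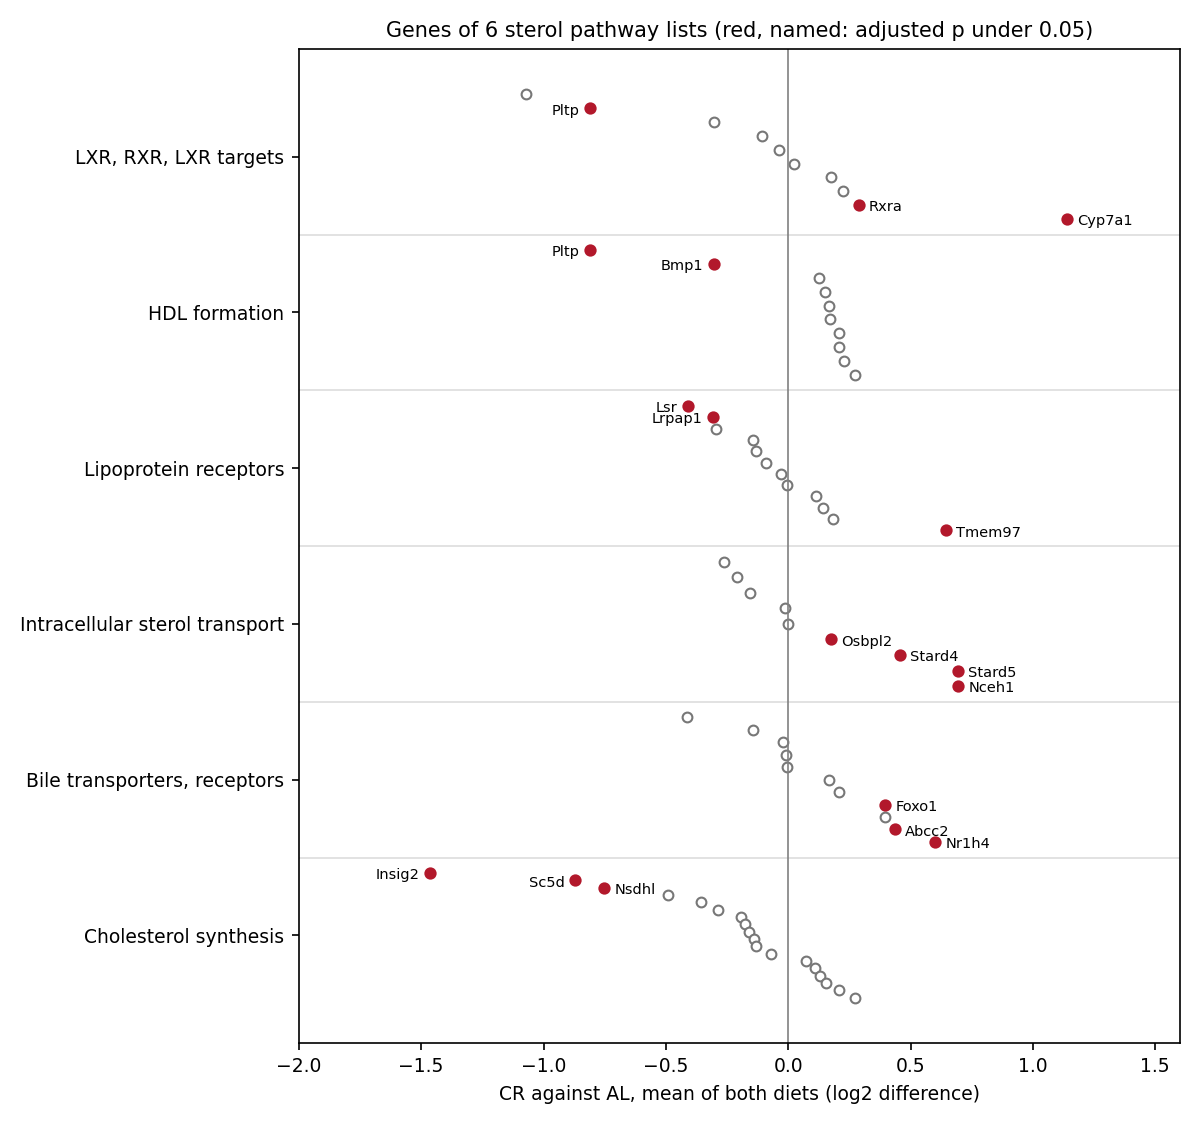
Difference of each measured gene of 6 sterol pathway lists in CR against AL, averaged over both diets, in log2 units. Red named points passed an adjusted p of 0.05; calls lie on both sides of 0, from Insig2 at -1.46 to Cyp7a1 at 1.14.

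In CR-WIS against AL-WIS livers, where 13% of all probes were called, Cyp7a1 rose by 1.63 (limma adjusted p = 0.0287), Nr1h4 by 0.73 (adjusted p = 0.0116) and Abcc2 by 0.60 (adjusted p = 0.0192). Rxra rose by 0.37, Foxo1 by 0.52, Tmem97 by 0.83, Stard5 by 0.73 and Osbpl2 by 0.25, while Insig2 fell by 1.20, Lrpap1 by 0.37 and Npc2, a lysosomal cholesterol carrier, by 0.42. In CR-NIA against AL-NIA livers, where 11.6% of all probes were called, 3 of 18 cholesterol synthesis genes fell, with Insig2 at -1.73 (adjusted p = 0.00159), Nsdhl at -1.16 and Sc5d at -1.18. There Lsr also fell by 0.66 (adjusted p = 0.0252), and Nceh1 at 0.91 and Stard5 at 0.66 rose. Without AL-WIS replicate 1, Cyp7a1 differed by 1.51 (adjusted p = 0.0839), Nr1h4 by 0.45 (adjusted p = 0.0591) and Abcc2 by 0.33 (adjusted p = 0.0976) in the WIS comparison. Rxra, Osbpl2, Lrpap1 and Npc2 also missed the threshold then, with adjusted p of 0.0743, 0.0597, 0.139 and 0.259. Foxo1 at 0.50 (adjusted p = 0.0226), Tmem97 at 0.69 (adjusted p = 0.00696), Stard5 at 0.59 (adjusted p = 0.0139) and Insig2 at -1.35 (adjusted p = 0.0204) still passed. Averaged over both diets without that library, Pltp at -0.70 (adjusted p = 0.0799) and Stard4 at 0.30 (adjusted p = 0.0507) no longer passed, and the other genes called in that average did.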

How the data were processed

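Liver RNA of 40 mice was measured on Illumina BeadChips. Levels come from the deposited score table, in which every array has mean 0 and SD 1. The authors' steps to these scores are not described in the sources used. Detection was read from the deposited linear intensity table, for which the submitters' processing notes name GenomeStudio 2011.1. That table pairs each intensity with a detection p-value, per the file headers. The headers name the group of a column but not the sample, and the 6 AL-NIA columns, more than the 5 AL-NIA samples, were not used. Standardised log2 signals equalled the scores to within 0.01 for a column of the right group in 34 samples but not in CR-NIA replicate 1 (3.17). No 2 arrays shared more than 4.44% of their scores.

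Scores were multiplied by 1.51, the median SD of the log2 signal over the 34 columns used, so folds rest on this rescaling and understate changes of dim probes. Probes detected (p under 0.01) on at least 4 of the 34 arrays were fitted with limma 3.58.1 (R 4.3.3), with 1 mean per group over 40 arrays. Each of 16 comparisons, 9 pairwise, 4 averaged and 3 interactions, was adjusted by Benjamini-Hochberg over 11334 probes at 0.05. Since replicates are separate livers only as far as their labels say, p-values measure the spread between these samples. Gene symbols came from the platform annotation (23978 of 25697 probes had one), and the brightest probe stood for a listed gene. Correlations used 100000 resamples or all pairings (Python 3.11.15, scipy 1.17.1). The fitting code was tested on simulated data. Named genes are the members, the 3 genes most correlated with each tested member, and up to 4 called genes with the smallest p of each list. The members and lists were chosen with earlier results of these data known. Alternatives covered normalization, filter, model, replicate block and left-out libraries. The number of arrays limits the precision.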

Additional observations from a re-analysis of the deposited data

Results flagged for a closer look

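AL-WIS replicate 1 was set far from the other 5 livers of its group by 3 of the 4 genes, in a test of each group for a value separated from the rest by most of the group's range. Its Abcg5 level of 1.40 lay below the next lowest, 3.43, and its Abcg8 level of 0.38 below 2.93. Its Scarb1 level of -0.11 lay above the next highest, -0.51, and Abca1 was not set apart. Of 24 combinations of gene and group, 3 were set apart, all from this library. Chance gives about 1 in 20 for independent combinations. These 3 share 1 array, and Abcg5 and Abcg8 levels are correlated, so that rate cannot be set against the count. The same library had a mean level of 3.51 over 13 macrophage and Kupffer cell markers, 2.86 over 5 neutrophil markers and -1.02 over 12 hepatocyte markers, each relative to the mean of the 40 arrays. The part of these in its transporter levels was not tested.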

How the results depend on the processing

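Abcg5 and Abcg8 kept the direction of their CR against AL differences, per diet and averaged, under every alternative that could be run. The 2 calls in CR against AL over both diets stood in all settings but the replicate block, and those in CR-WIS against AL-WIS in all but 3, the cause not being tested. The number of called genes of the 3 tested, in CR-WIS against AL-WIS, was 0 in a fit to the compared groups alone and ranged from 0 (without AL-WIS replicate 1) to 2 when single libraries were left out. In CR-NIA against AL-NIA it was 1, Scarb1, with array weights and without the 3 libraries, and 0 to 1 over single libraries. In CR-NIA against MF-NIA and in CR against MF over both diets, the 1 call (Scarb1) was 0 after quantile normalization of scores, median centring, the stricter filter or 1 probe per gene, and 0 to 1 over single libraries. In CR against MF it was also 0 with no filter, and 2, with Abcg5, under array weights or without the 3 libraries. In CR-WIS against CR-NIA it was 1, Scarb1, with neqc of the signals. Of all 48 differences of the 3 tested genes, 15 changed sign in at least 1 setting, and 0 of these were called (-0.22 to 0.25 with all libraries). Among them, Abcg8 in CR against MF over both diets was -0.020 after quantile normalization of the scores, -0.011 with the replicate block and -0.026 to 0.24 over single libraries, and in MF-NIA against AL-NIA -0.024 to 0.23. Scarb1 in CR-WIS against AL-WIS was 0.0018 after quantile normalization of scores, 0.040 after median centring, 0.051 with neqc, 0.015 with quantile normalized signals, 0.037 with array weights, 0.051 without the 3 libraries and -0.066 to 0.051 over single libraries. The correlation of Abcg5 with Abcg8 was 0.84 to 0.92 in 4 other settings. One of these, without AL-WIS replicate 1 and MF-WIS replicate 4 (0.86), and the rankings of similar genes without AL-WIS replicate 1 and over deviations from the group means were chosen after seeing the data. The exact permutation tests were run without adjustment, and AL-NIA comparisons were not run on the signals.

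The labels reuse replicate numbers between groups. Same-numbered arrays of different groups did not deviate together (r from -0.58 to 0.52 over 79 pairs, 23 above 0.1), so the numbers pair no samples. With the replicate number as a block, 0 genes were called in CR-WIS against AL-WIS (Abcg5 0.98 and Abcg8 1.07, adjusted p = 0.0649 and 0.0571), 0 in CR against AL over both diets (0.61 and 0.64, adjusted p = 0.0762 and 0.0800) and 0 in CR against MF. Calls over all probes in CR-WIS against AL-WIS were 305 with the block and 1479 without, and 549 without AL-WIS replicate 1.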
